A study of Mus musculus with 12 samples.

Results

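The difference between Tet2 knockout (KO) and Tet2 mutant (Mut) marrow cells was compared between 2 sorted populations, LSK and MPP. The contrast was (LSK KO minus LSK Mut) minus (MPP KO minus MPP Mut) on the log2 scale, and it used 8 of the 12 RNA-seq libraries of the series. These were 2 libraries each of LSK KO, LSK Mut, MPP KO and MPP Mut, chosen by their labels and not by any measured value. The wild-type libraries took no part in the contrast, and their levels are quoted beside some genes as the control background. All mice were of the 129/C57/B6 mixed strain and 10 weeks old. For each genotype the marrow of 2 mice was pooled before sorting, and the 2 libraries of a group are technical replicates of that pool. Errors and p-values therefore reflect technical spread within a pool, and mouse-to-mouse variation was not measured. KO and Mut name the libraries labelled so. The libraries called MPP here carry MPP in their descriptions and Lin in their titles. How the KO allele was made, which residues Mut alters and the gates used for MPP are not given in the sources used here.

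LSK cells are lineage-negative marrow cells that carry Sca-1 and Kit, and they include the blood stem cells and the earliest progenitors. Multipotent progenitors (MPP) have lost long-term self-renewal and feed the myeloid and lymphoid lineages. Tet2 encodes a dioxygenase that oxidises 5-methylcytosine in DNA, and its loss is known for expanding stem cells and skewing marrow output towards myeloid cells. A positive contrast means that the KO level relative to Mut was higher in LSK than in MPP, and a negative contrast the reverse. A contrast of 0 means that KO and Mut differed by the same factor in both populations.

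Between 13071512 and 23532847 reads were counted on genes in each library. Accordingly 3 counts, the limit that counting error alone allows for a count of 0, correspond to 0.127 to 0.230 CPM, which are counts scaled to the library's total. LSK libraries held higher levels of the LSK marker genes: Ly6a, the gene of Sca-1, was at 122 to 163 CPM in the 4 LSK libraries and at 10.5 to 20.8 CPM in the 4 MPP libraries. The 8 LSK markers summed to 2552 to 3246 CPM in LSK and to 541 to 724 CPM in MPP, where Mecom was at 0 in both KO libraries. The 6 markers of committed myeloid progenitors summed to 4781 to 6019 CPM in LSK and to 46550 to 49476 CPM in MPP. By these genes the libraries labelled MPP go against that name in part: they carried abundant myeloid granule transcripts and little Flt3 (80.9 to 133 CPM against 729 to 1160 CPM in LSK), a receptor that marks early multipotent progenitors. Hba-a1, Hbb-bt, Pax5 and Ms4a1, markers of red cells and B cells, were listed at 0 in all 8 libraries. Spike-in RNA took 0.147 and 0.160% of the counts in the LSK KO libraries and 0.139 and 0.0822% in the LSK Mut libraries. It took 3.18 to 3.45% in MPP KO and 4.89 to 5.15% in MPP Mut. Spike-in scaling thus rests on shares that were uneven between the 2 LSK Mut libraries of 1 pool. The cause of these differences in spike-in share was not tested. The results below depend on whether libraries are scaled by the spike-ins: 977 genes were then called for the contrast instead of 25.

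Tet2 itself was at 29.3 and 32.2 CPM in LSK KO, 43.5 and 45.0 in LSK Mut, 35.6 and 35.1 in MPP KO, and 40.6 and 37.5 in MPP Mut. The wild-type libraries on the same scale held 88.1 and 63.3 CPM in LSK and 40.0 and 29.7 CPM in MPP, so in MPP the KO libraries lay within the wild-type range. A count over the whole gene does not show a deleted exon, and values by exon were not analysed here. The Tet2 contrast was -0.38 (SE 0.343) and missed the threshold (edgeR quasi-likelihood test, Benjamini-Hochberg adjusted p = 0.761). Its relatives missed it too, Tet1 with 0.98 (SE 0.613, adjusted p = 0.620) and Tet3 with 0.27 (SE 0.332, adjusted p = 0.849), and both of these values fell below 0 when libraries were scaled by the spike-ins (-0.16 and -0.99).

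Of 13750 genes tested, 25 passed the contrast at an adjusted p under 0.05, which is 0.182% of the genes. A positive contrast was called for 16 of them (0.116%) and a negative one for 9 (0.0655%). At an unadjusted p under 0.05 there were 1455 genes (10.6%). The separate differences behind the contrast were called for 82 genes in LSK (0.596%, 41 higher and 41 lower in KO) and for 28 genes in MPP (0.204%, 8 higher and 20 lower). Of the 25, 15 belong to the gene lists used here. With positive contrasts these were Epx, Prg2 and Ear1 of the eosinophil list, Lars2, Rn45s and Malat1 of the list of noncoding and ribosomal RNA rows, the ribosomal protein gene Rplp1 and the interferon-induced gene Ifi44. With negative contrasts they were Elane, Prtn3 and Ly6c2 of granulocyte-monocyte progenitors, S100a9 and Chil3 of late neutrophils, the basophil protease Prss34 and the erythroid gene Car2. The other 10 are in no list: Arid1a, Chd4, Ddx17, Ltb, Alox5, Col16a1, Kcnh2 and Hnf4a with positive contrasts, and Tfr2 and Cdc16 with negative ones.

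For 17 of the 25 genes the fitted differences had opposite signs in LSK and MPP. Being called for the contrast favours opposite signs by construction, and their share over all genes was not counted. The larger of the 2 differences was that of LSK for 18 genes and that of MPP for 7. The LSK difference was called for 16 of the 25, the MPP difference for 9, both for 5 and neither for 5 (Alox5, Car2, Ifi44, Ltb and Prtn3). KO and Mut libraries did not overlap in LSK for 22 of the 25 genes and in MPP for 24, against 42.2% and 38.7% of all genes tested. Leaving out each of the 8 libraries in turn, 9 genes kept the call in every fit: Ear1, Elane, Epx, Lars2, Ly6c2, Prg2, Prss34, Rn45s and Tfr2. Tfr2 was the one gene that also kept it under the 11 other settings tried. All of these contrasts are relative to the median gene, which had a contrast of -0.00. Scaling by the spike-ins moved that median to -1.23, with -0.58 for the LSK difference and 0.65 for the MPP difference. The split of calls moved with it, to 13 positive and 964 negative contrasts, to 5 higher and 9 lower genes in LSK, and to 22 higher and 7 lower genes in MPP. Lars2 and Rn45s kept their calls under every setting but this one.

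**Figure D1:**
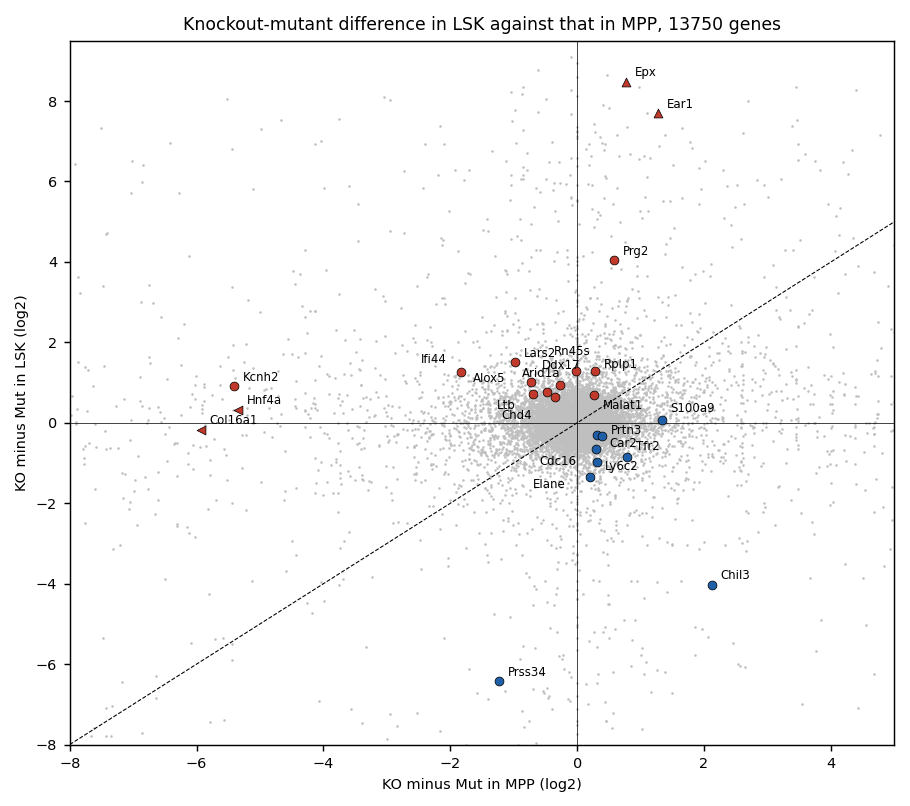
KO minus Mut difference in MPP (horizontal, log2) against that in LSK (vertical, log2) for the genes tested; 330 genes beyond the axes are not drawn. Coloured points are the 25 called genes (red positive contrast, blue negative), triangles mark genes with a group at 0 counts at their bound, and the dashed line is an equal difference in both populations. The called genes lie away from the dashed line, 17 of them where the fitted differences have opposite signs, and selection by the contrast favours both.

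Eosinophils store cationic proteins and a peroxidase in their granules, and their precursors switch on these genes early. Epx (eosinophil peroxidase, chromosome 11, 87864000 to 87875536, minus strand) was at 30.1 and 29.4 CPM in LSK KO and at 0 counts in both LSK Mut libraries. In MPP it was at 1076 and 999 CPM in KO and at 611 and 609 CPM in Mut. Both LSK wild-type libraries were also at 0. The LSK KO level was therefore at least 358-fold higher than that of Mut (947 counts, set against the limit of 3 counts for a group with none), whereas the MPP KO level was 1.70-fold higher. This bound, like those of Ear1, Col16a1 and Hnf4a below, covers counting error only. The contrast at this bound was 7.72, and the adjusted p of the fitted model was 1.72e-06.

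Prg2, the gene of eosinophil major basic protein (chromosome 2, 84980461 to 84983632, plus strand), was at 145 and 139 CPM in LSK KO and at 6.95 and 10.2 CPM in LSK Mut. The MPP libraries held 5040 and 4557 CPM in KO and 3367 and 3034 CPM in Mut. The KO libraries lay above the Mut libraries in both populations, by 16.6-fold in LSK and by 1.5-fold in MPP. The contrast was 3.46 (SE 0.184, adjusted p = 1.85e-05). In the wild-type LSK libraries Prg2 was at 0 and 0.161 CPM.

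Ear1, an eosinophil-associated ribonuclease, was at 15.2 and 20.1 CPM in LSK KO and at 0 counts in both LSK Mut libraries. In MPP it was at 270 and 265 CPM in KO and at 110 and 111 CPM in Mut. The LSK KO level was at least 209-fold higher (551 counts), the MPP KO level was 2.41-fold higher, and the contrast at its bound was 6.43 (adjusted p = 0.000231). The wild-type LSK libraries held 7.46 and 0 CPM, so 1 of them lay between the KO and Mut levels. They come from 1 pool, so a count of 0 occurred beside a level well above the limit of 3 counts, and the bound does not cover such spread. This gene belongs to a family of near-identical copies, so the share of its reads that other copies gave is uncertain. Among the other members Prg3, a homologue of Prg2, was at 7.70 and 3.72 CPM in LSK KO against 0 and 0.494 in LSK Mut, and at 339 and 285 CPM in MPP KO against 168 and 203 in MPP Mut. Its contrast of 3.75 (SE 0.763) missed the threshold (adjusted p = 0.130), and so did that of the lipoxygenase gene Alox15 (3.14, SE 0.836, adjusted p = 0.222).

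All 11 genes of the eosinophil list were tested, and 3 were called, all positive. Of the 11, 10 had a contrast above 0 (49.8% of all genes did) and 6 a positive one at an unadjusted p under 0.05 (5.51% of all genes). Ear2, Ear6, Il5ra and Ccr3 averaged 0.421 to 1.26 CPM in LSK KO and 0 in LSK Mut, so the signs of their contrasts rest on low levels. Ear2 and Ear6 are also of the family of Ear1. The shares of this list and of all genes are therefore not directly comparable. The list median was 3.85, but 6 members had a group at 0 counts that allowed a bound. A further member, Rnase2a, was at 0 in both LSK groups, so its contrast above 0 comes from MPP alone. With the 6 at their bound and Rnase2a left out the median was 2.68. Siglecf, a sialic acid receptor of mature eosinophils, was the member below 0 (-1.19, SE 0.646, adjusted p = 0.556). Markers of eosinophils (Prg2, Epx and Il5ra) summed to 169 to 176 CPM in LSK KO, 6.95 to 10.2 CPM in LSK Mut, 5561 to 6121 CPM in MPP KO and 3647 to 3981 CPM in MPP Mut. Il5ra, the receptor subunit for the eosinophil cytokine, was at 0.997 and 0 CPM in LSK KO and at 0 in LSK Mut. In bulk RNA such as this, fewer cells of a type and less RNA per cell cannot be told apart.

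The log2 contrast compares ratios. On the linear scale the contrast had the opposite sign for Epx, Prg2 and Ear1, because the KO excess was larger in MPP in absolute terms. For Prg2 that excess was 133 CPM in LSK and 1598 CPM in MPP, and for Epx 29.8 CPM and 428 CPM. The same applied to Prss34, so these 4 of the 25 genes differ between populations in fold and, the other way round, in amount.

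Promoter sequence is shown for 4 genes that mark the opposed movements, because genes of eosinophils and neutrophils are textbook targets of GATA, C/EBP, PU.1 and RUNX factors. The RefSeq promoter table (GRCm38.p6) had an entry for 24 of 28 genes, the 25 called ones and Tet1, Tet2 and Tet3. Each run is the 150 bases before the gene start (before the more upstream of the RefSeq and GENCODE starts for Elane), 5′ to 3′ on the gene's strand. Capitals mark matches to the words searched. For Ear1 the RefSeq start was used, and the window lies inside the longer GENCODE gene (43818765 to 43875517). The GATA words searched were AGATAA together with TGATAA, as well as AGATAG together with TGATAG. The C/EBP word was TTGCNNAA, the PU.1 word was GAGGAA and the RUNX word was TGNGGT, and both strands were searched. Of 32851 promoter windows of this length, 16% held a GATA word, 5.46% a C/EBP word, 14.5% a PU.1 word and 26.0% a RUNX word.
Epx, chr11:87875537-87875686, minus strand: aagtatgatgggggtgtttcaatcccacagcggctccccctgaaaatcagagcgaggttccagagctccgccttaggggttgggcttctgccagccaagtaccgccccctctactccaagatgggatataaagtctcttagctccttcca
Ear1, chr14:43819640-43819789, minus strand: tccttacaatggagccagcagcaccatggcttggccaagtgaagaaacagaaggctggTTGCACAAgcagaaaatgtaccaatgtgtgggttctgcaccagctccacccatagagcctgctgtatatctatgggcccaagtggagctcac
Elane, chr10:79886097-79886246, plus strand: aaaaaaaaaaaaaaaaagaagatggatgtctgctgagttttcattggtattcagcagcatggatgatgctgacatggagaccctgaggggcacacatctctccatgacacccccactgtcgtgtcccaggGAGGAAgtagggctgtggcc
Prss34, chr17:25298244-25298393, plus strand: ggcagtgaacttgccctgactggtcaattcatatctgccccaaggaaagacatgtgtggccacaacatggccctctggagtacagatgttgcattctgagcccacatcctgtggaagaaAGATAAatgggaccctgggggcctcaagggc
The Ear1 window held 1 C/EBP word, that of Elane 1 PU.1 word and that of Prss34 1 GATA word, while that of Epx held none of the words. These matches describe letters in a short window and show neither binding nor its absence.

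Elane, the gene of neutrophil elastase (chromosome 10, 79886247 to 79888215, plus strand), moved against the eosinophil genes in LSK. It was at 193 and 176 CPM in LSK KO and at 467 and 474 CPM in LSK Mut, and at 8868 and 9311 CPM in MPP KO and 8167 and 7598 CPM in MPP Mut. KO was thus 2.55-fold lower than Mut in LSK and 1.15-fold higher in MPP, and the libraries did not overlap in either population. The contrast was -1.56 (SE 0.0780, adjusted p = 1.44e-05), with the LSK difference called (adjusted p = 1.77e-06) and the MPP difference not (adjusted p = 0.236). The wild-type LSK libraries held 122 and 179 CPM.

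Prtn3, the proteinase of the same primary granules and a neighbour of Elane on chromosome 10, showed smaller differences in the same directions. Its levels were 441 and 382 CPM in LSK KO, 508 and 523 in LSK Mut, 3720 and 3899 in MPP KO, and 3049 and 2768 in MPP Mut. The contrast was -0.71 (SE 0.108, adjusted p = 0.0443), although neither population's own difference was called (adjusted p = 0.140 and 0.107). The call was lost in 7 of the 8 fits that left out a library (adjusted p up to 0.112) and kept without LSK KO replicate 1. An annotated model of Plppr3 overlaps Prtn3 on the other strand, and with the strand setting unknown the reads cannot be told apart.

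Ly6c2, a surface protein of monocytes and their precursors, was at 81.8 and 74.2 CPM in LSK KO and at 120 and 124 CPM in LSK Mut. In MPP the order was the other way, with 1852 and 1917 CPM in KO and 1552 and 1526 CPM in Mut. The contrast was -0.94 (SE 0.104, adjusted p = 0.00708). Reads may be shared with the near-identical Ly6c1, so the value of either copy is uncertain.

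Of the 20 tested genes of granulocyte-monocyte progenitors, these 3 were called and all 3 were negative. A contrast below 0 was found for 15 of the 20, leaving 25% above 0 against 49.8% of all genes. With an unadjusted p under 0.05, 7 were negative (35% against 5.08%) and none positive. The list median was -0.30, and it stayed below 0 in each leave-one-out fit (-0.48 to -0.07). Not all primary granule genes took part: Mpo, myeloperoxidase, was at 4009 and 3880 CPM in LSK KO against 4669 and 4398 in LSK Mut, and its contrast was -0.08 (SE 0.0492, adjusted p = 0.610). Ctsg, cathepsin G, had -0.09 (SE 0.139, adjusted p = 0.896). Hp, haptoglobin, at -1.16 (adjusted p = 0.106), and Anxa1 at -0.67 (adjusted p = 0.130) had lower unadjusted p-values but missed the threshold.

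The 2 called genes of later neutrophils differed in the population behind the call. S100a9, a subunit of calprotectin, was at 643 and 635 CPM in MPP KO and at 273 and 235 CPM in MPP Mut, a 2.52-fold higher level in KO (adjusted p = 0.00426). In LSK its libraries overlapped, with 18.3 and 18.3 CPM in KO and 15.5 and 19.1 CPM in Mut. The contrast was -1.25 (SE 0.190, adjusted p = 0.0443), and the call was kept in 1 of the 8 leave-one-out fits, that without LSK Mut replicate 1. Its partner S100a8 was at 1497 and 1499 CPM in MPP KO against 746 and 748 CPM in MPP Mut, with 15.7 and 8.38 CPM in LSK KO against 19.5 and 27.4 in LSK Mut. Its contrast of -1.94 (SE 0.319) missed the threshold (adjusted p = 0.0627).

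Chil3, a chitinase-like protein of neutrophils and macrophages, was at 85.9 and 78.4 CPM in MPP KO and at 22.1 and 15.7 CPM in MPP Mut. In LSK it was close to the detection limit in KO, with 4 counts in all (0.111 and 0.146 CPM), and at 3.20 and 1.15 CPM in Mut. The LSK difference was called (adjusted p = 0.0412) and the MPP difference was not (adjusted p = 0.136). The contrast was -6.14 (SE 0.808, adjusted p = 0.0247), and it was kept in the 3 fits without LSK Mut replicate 1, LSK Mut replicate 2 or MPP Mut replicate 1. Of the 15 late neutrophil genes, these 2 were called, and the median was -1.30 (-0.57 for the LSK difference and 0.43 for the MPP difference). Negative contrasts at an unadjusted p under 0.05 were found for 5 (33.3%, against 5.08% of all genes) and a positive one for 1 (6.67% against 5.51%). The 5 neutrophil markers summed to 2303 to 2316 CPM in MPP KO, 1074 to 1078 CPM in MPP Mut and 41.1 to 58.7 CPM in the 4 LSK libraries.

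Prss34, a serine protease of basophils and mast cells (chromosome 17, 25298394 to 25300165, plus strand), was lower in KO in both populations, to unequal degrees. In MPP it was at 3284 and 2974 CPM in KO and at 7545 and 7113 CPM in Mut, 2.34-fold lower in KO (adjusted p = 0.00729). In LSK it was at 0.332 and 0 CPM in KO, 6 counts in all, and at 17.6 and 16.1 CPM in Mut (adjusted p = 6.15e-06). The contrast was -5.20 (SE 0.381, adjusted p = 0.000231). All 6 counts of LSK KO lay in replicate 1: the contrast was -9.85 without that library, which leaves the group at 0 counts, and -4.40 without replicate 2. Both LSK wild-type libraries were at 0.

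No other basophil or mast cell gene was called, and their contrasts lay on both sides of 0. Mcpt8, a basophil protease, was at 1601 and 1407 CPM in MPP KO and at 3429 and 3306 CPM in MPP Mut, and at 17.2 to 35.4 CPM in the 4 LSK libraries, where KO and Mut overlapped. Its contrast was positive (0.83, SE 0.309) and missed the threshold (adjusted p = 0.398). Of 12 tested genes of this list, 1 was called, with a negative contrast, and 7 contrasts were above 0 and 5 below. A positive contrast at an unadjusted p under 0.05 was found for 3 genes, Mcpt8, Cpa3 and Ms4a2 (25%, against 5.51% of all genes), and a negative one for Prss34 (8.33% against 5.08%). Hdc, the histamine-forming enzyme, had -0.87 (adjusted p = 0.577). The list median was 0.39, but it fell to -0.01 in one leave-one-out fit and to -0.87 with spike-in scaling. The 5 markers of mast cells and basophils summed to 5037 to 5526 CPM in MPP KO and 11827 to 12412 CPM in MPP Mut, and to 106 to 144 CPM in LSK KO and 178 to 179 CPM in LSK Mut.

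The genes of granulocytes and their progenitors given next were far lower in LSK than in MPP, and the LSK level can be given as a percentage of the MPP level of the same genotype. In KO this percentage was 2.96 for Prg2, 2.87 for Epx and 6.61 for Ear1, and in Mut it was 0.268 for Prg2 and 0 for the other 2. For Elane it was 2.03 in KO and 5.97 in Mut, for S100a9 2.86 and 6.81, and for Mpo 12.9 and 13.6. For Prss34 it was 0.00531 in KO and 0.229 in Mut, while for Mcpt8 it was 1.55 and 0.878. The percentages thus differed between genes of a library and moved in both directions between genotypes. What part cells outside the LSK gate may have in these levels was not tested.

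**Figure D2:**
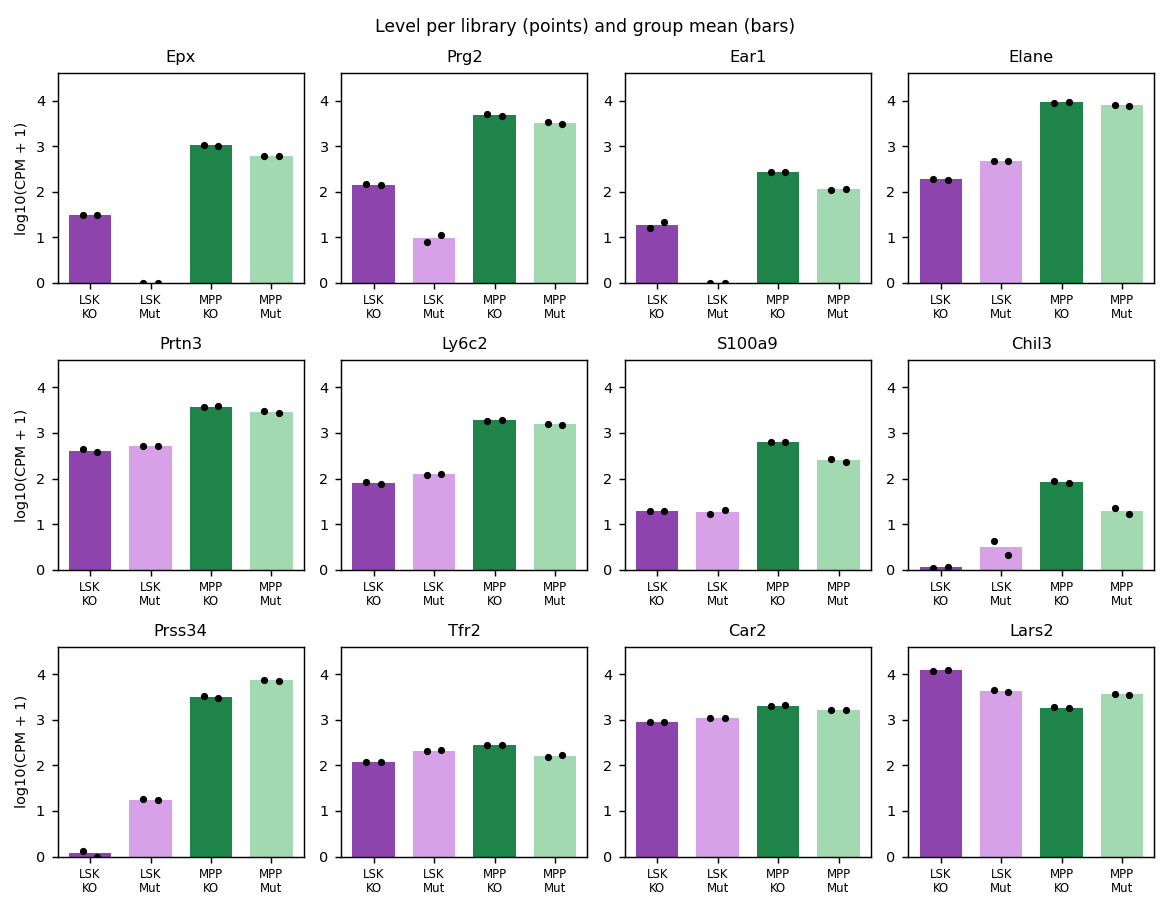
Level of 12 called genes as log10(CPM + 1), a log scale, in LSK KO, LSK Mut, MPP KO and MPP Mut; points are the 2 libraries of a group and bars the group mean. Epx and Ear1 stand at 0 in LSK Mut and above 10 CPM in LSK KO, and Elane is lower in LSK KO than in LSK Mut while it is higher in MPP KO than in MPP Mut.

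Tfr2, the transferrin receptor 2 that senses iron in erythroid cells (chromosome 5, 137569840 to 137587481, plus strand), reversed its order between populations. It was at 116 and 118 CPM in LSK KO and at 208 and 214 CPM in LSK Mut, but at 276 and 282 CPM in MPP KO and at 152 and 171 CPM in MPP Mut. KO was 1.81-fold lower in LSK (adjusted p = 0.0170) and 1.72-fold higher in MPP (adjusted p = 0.0371). The contrast was -1.64 (SE 0.165, adjusted p = 0.00351), and its adjusted p did not exceed 0.0249 under any of the 19 alternatives run. The wild-type libraries held 171 and 213 CPM in LSK and 191 and 176 CPM in MPP.

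Car2, carbonic anhydrase 2 of erythroid progenitors, followed the same order at a smaller size. It was at 918 and 880 CPM in LSK KO, 1097 and 1107 in LSK Mut, 2033 and 2094 in MPP KO, and 1674 and 1645 in MPP Mut. The contrast was -0.61 (SE 0.0802, adjusted p = 0.0247), and in leave-one-out fits it was called without LSK KO replicate 1 and in no other (adjusted p up to 0.0899). Of 22 tested genes of megakaryocyte-erythroid progenitors, Car2 was the one called, 10 contrasts were above 0 and 12 below, and the median was -0.01. At an unadjusted p under 0.05, 3 were positive (13.6%, against 5.51% of all genes) and 2 negative (9.09% against 5.08%). Apoe, apolipoprotein E, was the other negative one (-0.64, adjusted p = 0.198). Car1, a related carbonic anhydrase, had a positive contrast of 0.36 (adjusted p = 0.363), and Pf4, platelet factor 4, one of 1.66 (SE 0.385, adjusted p = 0.175), both short of the threshold. Of 15 tested genes of erythroblasts and heme synthesis, none was called, while 5 had a negative contrast at an unadjusted p under 0.05 (33.3%, against 5.08% of all genes) and 1 a positive one, with a median of -0.04. Uros, a heme synthesis enzyme, was at 116 and 109 CPM in MPP KO against 53.5 and 57.0 in MPP Mut, and overlapped in LSK at 22.2 to 38.2 CPM (contrast -1.30, adjusted p = 0.235). The erythroid markers summed to 234 to 246 CPM in LSK KO, 188 CPM in both LSK Mut libraries, 2993 to 3072 CPM in MPP KO and 2303 to 2502 CPM in MPP Mut.

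Lars2, which encodes the mitochondrial leucyl-tRNA synthetase (chromosome 9, 123366927 to 123462666, plus strand), had the smallest p-value of the contrast. It was at 12110 and 12248 CPM in LSK KO, 4443 and 4166 in LSK Mut, 1885 and 1799 in MPP KO, and 3702 and 3590 in MPP Mut. KO was 2.83-fold higher in LSK and 1.98-fold lower in MPP, and both differences were called (adjusted p = 1.59e-07 and 1.17e-05). The contrast was 2.49 (SE 0.0612, adjusted p = 4.62e-08), and it was 1.27 with spike-in scaling (adjusted p = 0.0582). The wild-type LSK libraries, at 17211 and 18436 CPM, lay above both LSK groups.

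Rn45s, the row of the 45S ribosomal RNA precursor, was at 23589 and 23951 CPM in LSK KO and at 9158 and 10319 CPM in LSK Mut. In MPP the libraries overlapped, at 9775 and 9980 CPM in KO and at 9337 and 10759 CPM in Mut. The contrast was 1.31 (SE 0.0925, adjusted p = 0.000218), and it was 0.06 with spike-in scaling. Counts of both rows can hold reads from other copies of ribosomal RNA sequence and are uncertain as measures of these genes. Leaving both, and Malat1, out of the TMM scaling called 23 genes instead of 25, with Prtn3 and Cdc16 lost.

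Rplp1, an acidic protein of the ribosomal stalk, was at 968 and 849 CPM in LSK KO and at 343 and 406 CPM in LSK Mut, and at 481 and 481 CPM in MPP KO against 410 and 384 in MPP Mut. The contrast was 1.0 (SE 0.149, adjusted p = 0.0443), called without LSK Mut replicate 2 but in no other leave-one-out fit, and it turned to -0.26 with spike-in scaling. It was the 1 called gene of 84 cytosolic ribosomal proteins tested, of which 54 had a contrast above 0 (64.3%, against 49.8% of all genes). With an unadjusted p under 0.05, 17 were positive (20.2% against 5.51%) and 2 negative (2.38% against 5.08%). The list median was 0.16 (-1.09 with spike-in scaling), made of 0.32 for the LSK difference and 0.12 for the MPP difference. Rps9 (contrast 0.74, SE 0.146, adjusted p = 0.124) came closest among the others. Ribosomal protein genes have many processed copies, so their counts are uncertain too.

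Malat1, an abundant nuclear noncoding RNA, was at 9925 and 9917 CPM in LSK KO, 6105 and 6098 in LSK Mut, 2842 and 2790 in MPP KO, and 2440 and 2244 in MPP Mut. It was higher in KO in both populations, by 1.63-fold and 1.2-fold, and the contrast was 0.44 (SE 0.0606, adjusted p = 0.0364), which turned to -0.79 with spike-in scaling. The neighbouring noncoding RNA Neat1 was at 230 and 210 CPM in LSK KO against 271 and 201 in LSK Mut, and at 542 and 435 CPM in MPP KO against 184 and 214 in MPP Mut. Its contrast of -1.40 (SE 0.234) missed the threshold (adjusted p = 0.0697).

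Among called genes outside the lists, 3 with roles in chromatin or RNA had LSK KO libraries above LSK Mut and MPP KO libraries below MPP Mut, with none of the 3 MPP differences called. Arid1a, the DNA-binding subunit of the BAF remodelling complex, was at 256 and 278 CPM in LSK KO, 154 and 158 in LSK Mut, 118 and 128 in MPP KO, and 185 and 155 in MPP Mut. Its contrast was 1.24 (SE 0.187, adjusted p = 0.0443), and it was 0.01 with spike-in scaling. Chd4, the ATPase of the NuRD complex, had 398 and 377 CPM in LSK KO, 256 and 240 in LSK Mut, 151 and 144 in MPP KO, and 194 and 181 in MPP Mut. Its contrast was 0.99 (SE 0.152, adjusted p = 0.0449), turning to -0.22 with spike-in scaling. The RNA helicase Ddx17 had a contrast of 1.21 (SE 0.179, adjusted p = 0.0443), and 0.00 with spike-in scaling, with 385 and 415 CPM in LSK KO, 218 and 202 in LSK Mut, 97.8 and 82.8 in MPP KO, and 113 and 106 in MPP Mut. Chd4 and Ddx17 fall outside the rule for named genes and were added after their values were seen. In leave-one-out fits the calls of Chd4 and Ddx17 were lost each time (adjusted p up to 0.141 and 0.137) and that of Arid1a in 7 of 8.

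Cdc16, a subunit of the anaphase-promoting complex, moved the other way. It was at 70.3 and 81.1 CPM in LSK KO against 152 and 143 in LSK Mut, and at 177 and 198 CPM in MPP KO against 155 and 147 in MPP Mut. The contrast was -1.28 (SE 0.197, adjusted p = 0.0449), and no leave-one-out fit called it (adjusted p from 0.0795 to 0.141). Of 25 tested genes in a mixed list of TET partners and chromatin regulators, none was called, and the median was 0.27 (-0.93 with spike-in scaling). Positive contrasts at an unadjusted p under 0.05 were found for 6 (24%, against 5.51% of all genes) and a negative one for 1 (4% against 5.08%). Sin3a, the scaffold of a histone deacetylase complex, led them: it was at 26.8 and 43.3 CPM in MPP KO against 92.1 and 106 in MPP Mut, and at 81.7 to 96.1 CPM in the 4 LSK libraries (contrast 1.47, SE 0.342, adjusted p = 0.175). Kmt2d (0.76, adjusted p = 0.213) and Kmt2a (0.75, adjusted p = 0.367), histone methyltransferases, had contrasts of similar sign and missed the threshold.

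Ltb, lymphotoxin beta, was at 355 and 342 CPM in LSK KO and at 201 and 226 CPM in LSK Mut, but at 47.7 and 61.0 CPM in MPP KO and at 83.9 and 92.6 CPM in MPP Mut. Its contrast was 1.41 (SE 0.209, adjusted p = 0.0443) although neither difference was called alone (adjusted p = 0.0801 in LSK and 0.145 in MPP), and it was 0.15 with spike-in scaling. Genes of lymphoid-primed progenitors leaned the same way. Of 20 tested, none was called and 17 had a contrast above 0 (85%, against 49.8% of all genes). A positive one at an unadjusted p under 0.05 was found for 8 (40% against 5.51%), and a negative one for none. The list median was 0.78 (0.50 to 0.84 in leave-one-out fits, -0.46 with spike-in scaling), made of 0.58 for the LSK difference and -0.19 for the MPP difference.

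Flt3, the cytokine receptor of early lymphoid-primed cells, was at 1052 and 1160 CPM in LSK KO and at 753 and 729 CPM in LSK Mut, and at 80.9 and 99.1 CPM in MPP KO against 102 and 133 in MPP Mut. Its contrast was 0.96 (SE 0.194, adjusted p = 0.130). Dntt, the terminal transferase of lymphoid precursors, had 370 and 323 CPM in LSK KO against 228 and 224 in LSK Mut (contrast 0.79, SE 0.188, adjusted p = 0.179), and the chromatin organiser Satb1 had 234 and 244 against 144 and 134 CPM (0.76, SE 0.221, adjusted p = 0.268). None of these 3 contrasts passed. Jchain, the joining chain of immunoglobulins, was lower in KO in both populations: 11.1 and 8.97 CPM against 194 and 238 in LSK, and 12.6 and 9.11 CPM against 177 and 167 in MPP. Its contrast was accordingly small (-0.43, SE 0.293, adjusted p = 0.653).

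Ifi44, an interferon-induced gene, was at 90.4 and 95.6 CPM in LSK KO and at 33.3 and 44.0 CPM in LSK Mut, and at 5.11 and 3.22 CPM in MPP KO against 17.9 and 11.9 CPM in MPP Mut. The contrast was 3.10 (SE 0.470, adjusted p = 0.0443), with neither difference called alone (adjusted p = 0.169 and 0.0910). The wild-type LSK libraries, at 16.3 and 55.9 CPM, spanned the Mut range. No other gene of the 40 in the interferon list was called. Of the 40, 22 had a contrast above 0 (55%, against 49.8% of all genes), and the median was 0.09. Near the shares of all genes, 3 were positive (7.5% against 5.51%) and 1 negative (2.5% against 5.08%) at an unadjusted p under 0.05. Oasl2 (1.86, SE 0.369, adjusted p = 0.125) was next.

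Alox5, the 5-lipoxygenase of leukotriene synthesis, was at 6.43 and 7.73 CPM in LSK KO against 3.42 and 3.56 in LSK Mut, and at 120 and 111 CPM in MPP KO against 193 and 191 in MPP Mut. The contrast was 1.75 (SE 0.271, adjusted p = 0.0449), and no leave-one-out fit called it (adjusted p from 0.0667 to 0.141). The wild-type LSK libraries differed widely, at 41.9 and 0.241 CPM.

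In 3 called genes the contrast came from MPP libraries at or near 0, and the bounds given cover counting error only. Col16a1, a collagen chain, was at 28.1 and 46.6 CPM in LSK KO and at 51.7 and 32.1 CPM in LSK Mut, where the groups overlapped. In MPP it was at 0 counts in both KO libraries and at 6.18 and 8.31 CPM in Mut, at least 61.2-fold higher (262 counts), and the contrast at its bound was 5.77 (adjusted p = 0.0247). Hnf4a, a nuclear receptor best known from the liver, was at 18.2 and 32.8 CPM in LSK KO and 26.6 and 14.1 in LSK Mut, and at 0 counts in MPP KO against 4.32 and 5.28 CPM in MPP Mut, at least 40.9-fold higher (bound of the contrast 5.67, adjusted p = 0.0443). Kcnh2, a potassium channel, had 20.2 and 28.9 CPM in LSK KO against 10.3 and 15.8 in LSK Mut, and 2 counts in MPP KO against 136 in MPP Mut, a ratio of 47.6 with an exact 95% interval of 12.9 to 397 that covers counting error only.

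In the wild-type MPP libraries Col16a1 was at 0 and 0.303 CPM, Hnf4a at 6.12 and 4.14 CPM, and Kcnh2 at 0.269 and 8.69 CPM. The wild-type libraries of one pool thus lay on both sides of the Kcnh2 level of MPP Mut. Col16a1 lost its call without either MPP KO library (adjusted p up to 0.0558). The calls of Hnf4a and Kcnh2 were each kept in 1 of 8 leave-one-out fits, without LSK KO replicate 1 and without MPP Mut replicate 2. Hnf4a and Kcnh2 overlap annotated genes on the other strand (Hnf4aos and Gm15589), whose reads cannot be told apart with the strand setting unknown.

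Genes of blood stem cells gave no call. Mecom, a transcription factor of stem cells, was at 19.7 to 32.4 CPM in the 4 LSK libraries, where KO and Mut overlapped, and at 0 in MPP KO against 1.09 and 3.30 CPM in MPP Mut. Of 24 stem cell genes, 6 had a positive contrast at an unadjusted p under 0.05 (25%, against 5.51% of all genes) and 1 a negative one (4.17% against 5.08%). Their median was 0.36 (-0.83 with spike-in scaling), with -0.03 for the LSK difference and -0.47 for the MPP difference. Ly6a was at 163 and 152 CPM in LSK KO, 122 and 127 in LSK Mut, 10.6 and 10.5 in MPP KO, and 20.8 and 20.05 in MPP Mut (contrast 1.29, SE 0.247, adjusted p = 0.112). Kit, the stem cell factor receptor, had a contrast of 0.63 (SE 0.145, adjusted p = 0.175), with 181 and 184 CPM in MPP KO against 274 and 254 in MPP Mut. Hoxa9, a homeobox gene of immature progenitors, was at 8.50 and 6.91 CPM in MPP KO against 17.9 and 18.7 in MPP Mut and at 83.0 to 116 CPM in LSK (contrast 1.48, SE 0.321, adjusted p = 0.149). The LSK markers as a whole were lower in MPP KO (541 to 551 CPM) than in MPP Mut (708 to 724 CPM).

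Cell division genes mostly had small negative contrasts. Of 32 DNA replication genes, none was called, but 30 had a contrast below 0, leaving 6.25% above 0 against 49.8% of all genes. A negative one at an unadjusted p under 0.05 was seen for 13 (40.6% against 5.08%), and a positive one for none. The median was -0.40, made of -0.19 for the LSK difference and 0.17 for the MPP difference. Mcm2, a subunit of the replicative helicase, was at 366 and 327 CPM in LSK KO against 421 and 434 in LSK Mut, and at 940 and 874 CPM in MPP KO against 719 and 703 in MPP Mut (contrast -0.65, SE 0.122, adjusted p = 0.106). Rrm2, of ribonucleotide reductase (-1.03, SE 0.194, adjusted p = 0.106), and Tk1, thymidine kinase (-1.19, SE 0.230, adjusted p = 0.117), had the next smallest p-values.

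Of 30 mitosis genes, none was called and 27 had a contrast below 0, leaving 10% above 0, with a median of -0.38. Those negative at an unadjusted p under 0.05 were 10 (33.3%, against 5.08% of all genes), and none was positive. Ccnb2, a B-type cyclin, was at 137 and 113 CPM in LSK KO against 171 and 173 in LSK Mut, and at 286 and 299 CPM in MPP KO against 263 and 252 in MPP Mut (contrast -0.64, SE 0.175, adjusted p = 0.232). The medians stayed below 0 in all leave-one-out fits, from -0.47 to -0.32 for replication and from -0.42 to -0.34 for mitosis, and lay 0.38 below the median gene in both lists with spike-in scaling. Replication-dependent histone genes had a median of -0.54 over 56 genes, with 1 negative contrast at an unadjusted p under 0.05 (1.79%, against 5.08% of all genes). Members of such lists are not independent of each other, and no test of a list was made.

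**Figure D3:**
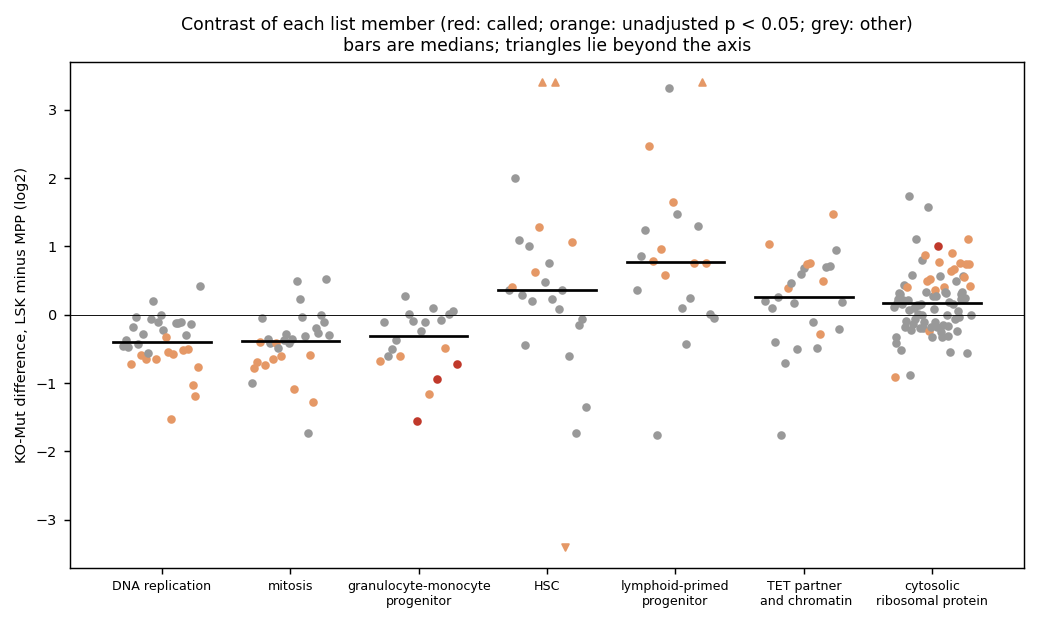
Contrast (log2) of each tested member of 7 lists; black bars are list medians, red points passed the adjusted threshold, orange points had an unadjusted p under 0.05, and triangles lie beyond the axis. Most replication and mitosis genes sit just below 0, and most lymphoid-primed genes above it.

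The 15 listed genes that passed came from 8 of the 35 lists, and the other lists gave no call. Among 28 immediate early genes none was called, and Fos (0.31, SE 0.0539, adjusted p = 0.0834), Fosb (0.77, adjusted p = 0.0904) and Egr1 (0.75, SE 0.135, adjusted p = 0.0972) came closest. Egr1 was at 496 and 421 CPM in MPP KO against 819 and 829 in MPP Mut, and at 637 to 736 CPM in LSK, where the groups overlapped. Ccl3, an inflammatory chemokine, was at 261 and 251 CPM in MPP KO against 473 and 516 in MPP Mut and at 200 and 211 against 249 and 234 in LSK (contrast 0.71, SE 0.143, adjusted p = 0.130). Circadian genes had a median of 0.55 over 16 genes (-0.62 with spike-in scaling), oxidative phosphorylation 0.04 over 76, glycolysis -0.16 over 19, DNA methylation enzymes and cofactors -0.23 over 21, and genes near Tet2 -0.38 over 13, none with a call.

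**Figure D4:**
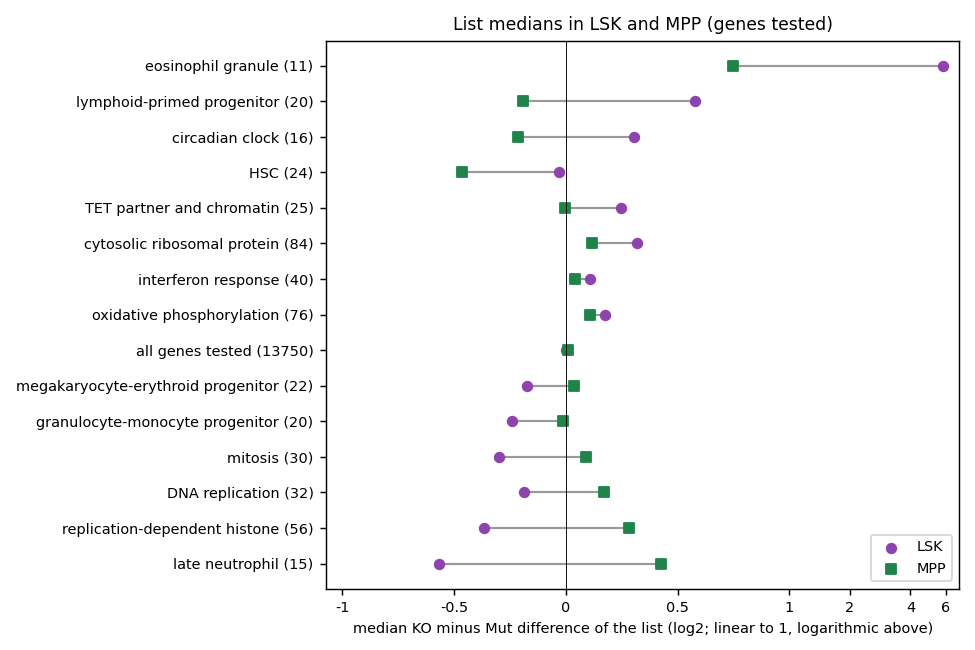
Median KO minus Mut difference (log2) in LSK (circles) and MPP (squares) for 14 lists and for all genes, with the number of genes tested; the axis is linear to 1 and logarithmic above. The eosinophil list lies at 5.81 in LSK and at 0.75 in MPP. Its LSK median of fitted values depends on the prior count, because 6 of its 11 members, and Rnase2a besides, have a group at 0 counts. Medians of opposite sign in the populations are seen for the lymphoid-primed, circadian, mitosis, replication, histone and late neutrophil lists. The same holds for the TET partner and chromatin and the megakaryocyte-erythroid lists, whose MPP medians are close to 0 (-0.01 and 0.04).

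Across all genes the KO minus Mut difference in LSK was only weakly correlated with that in MPP. Pearson's r between them was 0.0581 and Spearman's rho 0.0437 over 13750 genes, and 0.0769 and 0.0302 over the 11114 genes that averaged 50 counts or more. The 2 differences share no library, but genes are not independent replicates, and the coefficients are a description. The median size of the difference was 0.31 in LSK and 0.30 in MPP (log2), against a median standard error of 0.354 and 0.352. Differences no larger than their errors draw such coefficients towards 0, so the low values cannot show that the 2 differences are unrelated. At an unadjusted p under 0.05 in both populations, 105 genes (0.764%) had opposite signs and 147 (1.07%) the same sign.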

How the data were processed

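RNA from sorted LSK and MPP cells was amplified, barcoded and sequenced with spike-in controls, per the labels' protocols. The deposited tables hold whole-number counts per gene made by the authors. The submitters' processing notes name Trim Galore 0.4.1, TopHat2 2.0.13, HTSeq 0.6.1 and Cufflinks with the mm10 build; annotation and strand setting are not given in the sources used here, so reads of overlapping genes on opposite strands cannot be separated.

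Groups came from the labels. The count column of MPP KO replicate 2 carries a different library number from its title and was matched by the rest of its name; without it 11 genes were called. The 92 spike-in rows were left out of the 24538 genes, and 13750 genes passed edgeR's filterByExpr (minimum count 10, minimum total 15). Counts were scaled by TMM and fitted over the 8 libraries with edgeR 4.0.16 in R 4.3.3 (quasi-likelihood F test, 4 residual degrees of freedom, Benjamini-Hochberg adjustment, threshold 0.05). CPM values use TMM-scaled library sizes, and log2 standard errors come from the F statistic. Gene positions are from GENCODE M21 on the same build. The fits were tested on simulated data. Intervals and floors of 3 counts cover counting error only, since no molecular identifiers are given. Some genes averaging 50 counts or more in a group were at 0 in 1 of its libraries. These were 5 of 11056 genes in LSK KO, 19 of 11097 in LSK Mut, 13 of 10535 in MPP KO and 53 of 10932 in MPP Mut.

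Genes were named by a rule: up to 12 called genes in each direction by size of contrast with at least 100 counts per library in their highest group, up to 6 with opposite differences, up to 4 called members of each list, and the Tet genes. Genes named beyond these, called or not, were chosen as examples after their values were seen. Members and lists were chosen with earlier results of these data known. Alternatives were other scalings, filters and tools (limma 3.58.1, DESeq2 1.42.0), the wild-type libraries added, each library left out, and a linear contrast chosen after seeing the data. Replicates were not duplicates (chi-square per gene 22.8 to 42.4).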

Additional observations from a re-analysis of the deposited data

Results flagged for a closer look

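All 25 genes called for the contrast are listed here because the test of the difference itself found that KO and Mut differed by unequal factors in LSK and MPP (edgeR quasi-likelihood test, Benjamini-Hochberg adjustment). The values are fitted log2 contrasts, and those of Epx, Ear1, Col16a1 and Hnf4a, which have a group at 0 counts, depend on the prior count and are no bounds.

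Called in all 8 fits that left out a library were Lars2 with 2.49, Rn45s with 1.31, Epx with 11.16, Prg2 with 3.46, Ear1 with 9.91, Elane with -1.56, Ly6c2 with -0.94, Prss34 with -5.20 and Tfr2 with -1.64. Col16a1, with 9.72, was called in 6 of the 8, Chil3, with -6.14, in 3 and Malat1, with 0.44, in 2.

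Called in 1 of the 8 fits were Car2 with -0.61, Kcnh2 with 6.32, Hnf4a with 9.62, Rplp1 with 1.0, Ltb with 1.41, Arid1a with 1.24, Ifi44 with 3.10, Prtn3 with -0.71 and S100a9 with -1.25. Called in none of them were Ddx17 with 1.21, Chd4 with 0.99, Cdc16 with -1.28 and Alox5 with 1.75.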

How the results depend on the processing

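The count of 25 genes called for the contrast became 977 with spike-in scaling (15 of the 25 among them), 237 with no low-count filter, 656 with DESeq2, 7 with limma-voom, 10 against a 1.5-fold threshold, 9 with the wild-type libraries in the fit and 10 to 23 with a library left out. The 82 genes of LSK became 14 with spike-in scaling, 277 with no filter, 750 with DESeq2, 13 against the fold threshold, 37 with wild type, 36 in a fit of the 4 LSK libraries and 25 to 62 with a library left out. The 28 genes of MPP became 224 with no filter, 622 with DESeq2, 56 with limma-voom, 7 against the fold threshold, 14 with wild type and 9 to 29 with a library left out. The 15 called list members became 102 with spike-in scaling, 67 with no filter, 115 with DESeq2, 6 with limma-voom, 8 against the fold threshold, 8 with wild type and 8 to 15 with a library left out. The correlation of 0.0581 became 0.0770 with a filter at a mean of 50 counts, 0.0847 with limma-voom and 0.0333 to 0.0821 with a library left out. Same-numbered libraries shared only a number (correlations of their deviations -0.0152 to 0.0561), and a replicate block left 14 of the 25 contrasts called. Spike-in scaling called 29 genes in MPP, a similar number, but 8 of the 28 were among them. It turned Malat1 to -0.79, Rplp1 to -0.26, Chd4 to -0.22, Tet1 to -0.16 and Tet3 to -0.99. The linear contrast, chosen after seeing the data, was -398 CPM for Epx, -1464 for Prg2, -139 for Ear1 and 4183 for Prss34. Its sign was opposite to that of the log2 contrast for these 4 of the 25 genes. Their KO minus Mut difference was larger in MPP in absolute terms. For the other changes the cause was not tested. With 2 libraries of 1 pool per group, counting depth limits genes below about 0.230 CPM. Counts of 0 in 1 library of a group also occurred above that level, for 5 to 53 genes per group that averaged 50 counts or more. Variation between mice was not measured.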
